A study of Mus musculus with 12 samples.

Results

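Processed pseudogenes are copies of messenger RNAs that were reverse-transcribed and inserted back into the genome, and the 200 most abundant of them in injured mouse spinal cord are described here. They were chosen by their measured counts, as the rows of the count table annotated as processed pseudogene and carrying a gene name, with the highest mean expected count over all 12 libraries. The 200 were taken from 9998 such rows in a table of 57180 genes. Expected counts are the authors' estimates of the reads that belong to each gene. The choice used the count level, so that level is given as a description. At the end of the list Gm7162 had a mean of 14.3 counts and Gm14494 of 14.2, and just outside it Gm48793 and Gm42718 had 14.1 each.

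The tissue came from female wild-type C57BL/6J mice and was collected 7 days after a clip-compression injury of the thoracic cord, with a margin on each side of the lesion. OVX8_SCI7 mice had been ovariectomised 8 weeks before the injury, OVX2_SCI7 mice 2 weeks before it, and SCI7 mice had the injury alone, with 4 libraries in each group, labelled as biological replicates. Every label gives an age of 8 weeks without the time it refers to, every group carries the injury, and sham surgery is not among the groups, so that surgery, hormone loss, time since surgery and possibly age cannot be told apart. The RNA was sequenced in bulk, where fewer cells of a type and less RNA per cell cannot be told apart.

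A processed pseudogene usually lacks the introns and the promoter of the gene it was copied from, its parent, and most such copies make little RNA of their own. Its sequence is that of the parent's spliced message with the changes gathered since insertion. A short read from the message of an abundant gene can therefore match the gene and its copies equally well, and RSEM, the counting program named in the submitters' processing notes, divides such reads by an estimate. The enzyme that makes the copies is that of LINE-1, a mobile element encoding a reverse transcriptase, and pieces of LINE-1 are themselves annotated among the processed pseudogenes. Every count below can thus hold reads of near-identical copies elsewhere.

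A parent gene was found for 123 of the 200 members, which are called gene copies here. It came from the symbol for 27, from the description in the deposited table for 79 and from a sequence match for 17. A further 54 members are called LINE-1 copies here: the annotation of 45 names LINE-1 or its reading frames, and that of the others, among them Gm48493, names a reverse transcriptase. For Gm48348 it also names a Pol protein and an envelope polyprotein, which are retroviral, so that its place among them is uncertain. For 23 members no parent was found. Of the gene copies, 57 were identical to a transcript of the parent over their whole length, and 99 had an identity of 99% or more. Their 99 parents had a median level of 97.7 TPM (a level per length and per library total), against 7.67 TPM over the 21400 protein-coding genes, and 58 of the 99 lay in the top 10% of those genes. The gene copies had a median length of 591 bases and a median GC content of 50.5%, and the LINE-1 copies 3718 bases and 38.7%. Of the 54 LINE-1 copies, 15 lay on chromosome 10 and 12 on chromosome 12. In the GRCm38 annotation 136 of the 200 members lay outside any other gene, and 23 overlapped a gene on the same strand.

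The closeness of copy and parent is shown for members that switched or split between libraries and for a pair of Gapdh copies that fell. Each pair of lines gives 60 bases of a copy and the same stretch of the parent's coding sequence from GENCODE M21 (GRCm38), 5′ to 3′, with capitals where they differ. The stretch was chosen for having the most differences. Gm10052 (chr9:123690133-123690192, minus strand) copies Hnrnpa1, whose protein binds RNA during splicing, and has 0 differences over 960 bases.
Gm10052: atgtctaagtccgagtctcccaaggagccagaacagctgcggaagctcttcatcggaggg
Hnrnpa1: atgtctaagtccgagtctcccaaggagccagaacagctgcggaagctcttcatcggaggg
Eif4a-ps4 (chr1:60704435-60704494, plus strand) copies Eif4a1, which encodes a helicase of translation initiation, and differs at 1 base in 1218.
Eif4a-ps4: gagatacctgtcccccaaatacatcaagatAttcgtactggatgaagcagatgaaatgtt
Eif4a1: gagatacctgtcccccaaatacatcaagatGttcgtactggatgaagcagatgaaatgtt
Gm12537 (chr4:57371431-57371490, minus strand) and Gm12070 (chr11:26786963-26787022, plus strand) copy Gapdh, which encodes a glycolytic enzyme, and each differs from it at 1 base in 1002.
Gm12537: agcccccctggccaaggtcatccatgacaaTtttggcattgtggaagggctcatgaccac
Gapdh: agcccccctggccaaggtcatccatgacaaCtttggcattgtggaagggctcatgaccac
Gm12070: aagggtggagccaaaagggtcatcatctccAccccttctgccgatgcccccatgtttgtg
Gapdh: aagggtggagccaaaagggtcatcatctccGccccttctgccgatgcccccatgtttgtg
Mpc1-ps (chr12:110858825-110858884, minus strand) copies Mpc1, a subunit of the mitochondrial pyruvate carrier, and differs at 1 base in 330.
Mpc1-ps: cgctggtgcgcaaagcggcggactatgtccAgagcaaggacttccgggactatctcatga
Mpc1: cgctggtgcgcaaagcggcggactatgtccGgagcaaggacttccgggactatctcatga
Gm7332 (chr5:9260948-9261007, minus strand) copies Ppp1r14b, which encodes a protein phosphatase inhibitor, and differs at 2 bases in 454.
Gm7332: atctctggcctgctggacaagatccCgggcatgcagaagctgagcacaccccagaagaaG
Ppp1r14b: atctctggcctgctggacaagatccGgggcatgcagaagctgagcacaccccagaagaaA
Gm10108 (chr5:13121707-13121766, minus strand) matches the predicted gene Gm10053 except at 2 bases in 319. Gm10053 was taken as its parent from this match alone, and whether Gm10108 was copied from it or from another gene was not tested.
Gm10108: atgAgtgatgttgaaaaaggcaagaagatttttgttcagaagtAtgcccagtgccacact
Gm10053: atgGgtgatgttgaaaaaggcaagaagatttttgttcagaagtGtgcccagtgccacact

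A pair of LINE-1 copies is shown the same way. Gm48493 (chr13:16388998-16389057, minus strand) and Gm48111 (chr13:65404996-65405055, plus strand), the most abundant of them, differed at 9 of the 60 bases shown, with capitals at the differences. The stretch was again chosen for having the most differences, so it does not give their divergence over the whole length.
Gm48493: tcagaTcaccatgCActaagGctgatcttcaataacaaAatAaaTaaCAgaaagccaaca
Gm48111: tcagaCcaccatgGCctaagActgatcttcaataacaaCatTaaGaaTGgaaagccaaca

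The libraries held 18222809 to 31781728 counts, and a floor of 3 counts equalled 0.0931 to 0.164 CPM (counts scaled to a common, TMM-adjusted library size), which covers counting error only. Markers of neurons, astrocytes, oligodendrocytes and 5 other cell types were detected, with 0 markers at 0 throughout. The 4 markers of microglia and macrophages summed to 1269 to 1394 CPM in OVX8_SCI7, 723 to 1580 CPM in OVX2_SCI7 and 443 to 975 CPM in SCI7, and their part in the results was not tested. The mitochondrial share of counts was 2.79 ± 0.515% in OVX8_SCI7, 4.17 ± 2.80% in OVX2_SCI7 and 7.63 ± 1.80% in SCI7 (mean ± SD, n = 4). Across 12419 protein-coding genes, the Spearman correlation of GC content with a library's deviation from the mean was 0.18 to 0.87 in OVX8_SCI7, -0.44 to 0.54 in OVX2_SCI7 and -0.85 to -0.53 in SCI7. Replicate 1 of OVX2_SCI7 had a mitochondrial share of 8.33%, within the SCI7 range, and a GC correlation of -0.44, the only negative one of its group.

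Together the 200 members took a small part of each library. They held 0.202 ± 0.0224% of the counts in OVX8_SCI7, 0.211 ± 0.0310% in OVX2_SCI7 and 0.238 ± 0.0222% in SCI7 (SD, n = 4), and 94.7% of the counts of all processed pseudogenes. The libraries ran from 0.183 to 0.234% in OVX8_SCI7, from 0.177 to 0.242% in OVX2_SCI7 and from 0.212 to 0.265% in SCI7, so the groups overlapped. By the deposited TPM, which divide by length, the order was the opposite, with means of 1.65% in OVX8_SCI7, 1.61% in OVX2_SCI7 and 1.22% in SCI7. Gm37421, the shortest member at 132 bases, was listed at 0 TPM in every library although it had counts. The 10 most abundant members held 56.4% of the member counts, and the median member had a mean of 46.1.

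Set apart by kind, gene copies held 0.178 ± 0.0254% of counts in OVX8_SCI7, 0.182 ± 0.0388% in OVX2_SCI7 and 0.197 ± 0.0322% in SCI7. LINE-1 copies held 0.0163 ± 0.00373% in OVX8_SCI7, 0.0210 ± 0.00728% in OVX2_SCI7 and 0.0311 ± 0.00887% in SCI7. The LINE-1 share was 0.0314% in replicate 1 of OVX2_SCI7 and 0.0157 to 0.0204% in its other libraries, and it was 0.0184% in replicate 1 of SCI7 and 0.0331 to 0.0392% in the other SCI7 libraries. All 4 OVX2_SCI7 libraries lay in the range of another group, and the lowest SCI7 library lay in the OVX8_SCI7 range. Set against their own parents, the gene copies took 8.46 ± 0.422% of the counts of copies and parents together in OVX8_SCI7, 8.95 ± 0.926% in OVX2_SCI7 and 11.5 ± 1.22% in SCI7. The libraries lay between 8.07 and 9.02% in OVX8_SCI7 and between 10.2 and 13.1% in SCI7, with no overlap, and replicate 1 of OVX2_SCI7 was the highest of its group at 10.1%.

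**Figure D1:**
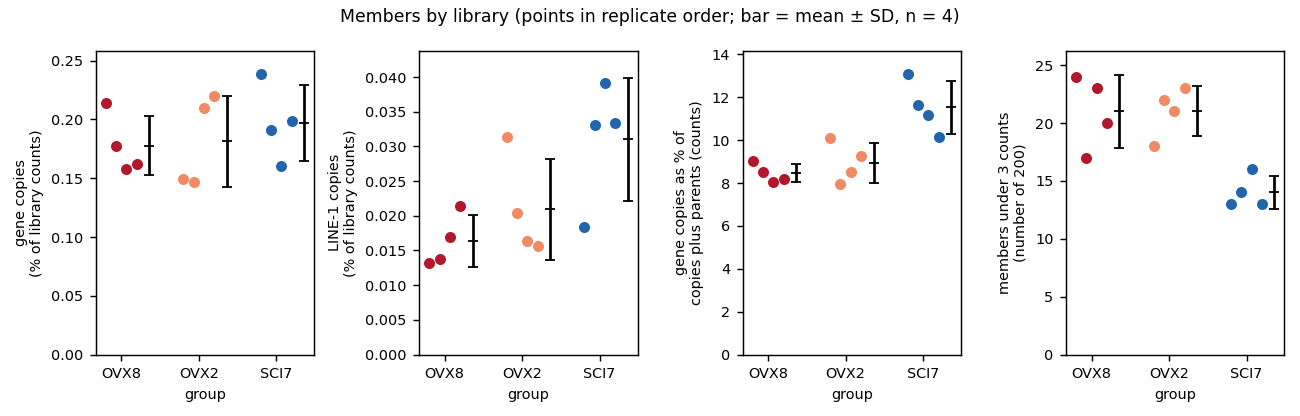
Each panel shows 1 measure for the 12 libraries by group (points), with the mean ± SD beside them (n = 4): the percent of library counts in gene copies, the percent in LINE-1 copies, the gene copies as a percent of copies plus parents, and the number of members under 3 counts. The OVX8_SCI7 libraries sit at 8.07 to 9.02% in the third panel, all below the SCI7 libraries at 10.2 to 13.1%, and above them in the fourth.

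The most abundant member was Tpt1-ps3, identical to its parent Tpt1, which encodes the abundant protein TCTP. It had 4331, 3931, 3223 and 5891 counts in OVX8_SCI7, 4419, 2614, 4974 and 3524 in OVX2_SCI7, and 8008, 6012, 3856 and 6764 in SCI7. Tpt1 itself had 13991 to 25278 counts in OVX8_SCI7, 8730.3 to 23300.2 in OVX2_SCI7 and 7350.2 to 16411 in SCI7. The copy was high in every library, its groups overlapped, and it did not pass between OVX8_SCI7 and SCI7 (log2 fold change -0.71, SE 0.33, edgeR adjusted p = 0.114). Gm10123, identical to Ppia (cyclophilin A, a peptidyl-prolyl isomerase), had 2009.5 to 4132 counts in OVX8_SCI7, 2313 to 3433 in OVX2_SCI7 and 2955 to 5058 in SCI7, and did not pass either (edgeR adjusted p = 0.0634).

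Copies of ribosomal protein genes made up 4 of the 10 most abundant members. Gm7536 (a copy of Rpl27a) averaged 2315 counts, Rps23-ps1 1420.4, Rpl15-ps3 1295 and Rps6-ps4 1133. Gm7536 had about as many counts as its parent. It had 4172, 3875, 2030.2 and 1661 counts in OVX8_SCI7 beside 3547, 3053, 1673 and 1843 of Rpl27a, and 1874, 1253, 973 and 1437 in SCI7 beside 1718, 1258, 1018 and 1601 of Rpl27a. Neither Gm7536 nor Rps23-ps1 nor Rpl15-ps3 passed between OVX8_SCI7 and SCI7 (edgeR adjusted p = 0.175, 0.672 and 0.0935). Among the 25 most abundant members 21 were gene copies, 16 of them identical to their parent.

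Gapdh had 13 copies among the members, and they moved in different directions. As a group they took 31.0 ± 2.31% of the counts of Gapdh and its copies in OVX8_SCI7, 30.7 ± 1.81% in OVX2_SCI7 and 31.1 ± 1.21% in SCI7. The copies summed with Gapdh stood at 1849.8 ± 249 CPM in OVX8_SCI7, 1704 ± 390.0 in OVX2_SCI7 and 1268 ± 158 in SCI7, and the sum did not pass (log2 fold change 0.55, SE 0.21, edgeR adjusted p = 0.0655). Within it Gm7336 rose in OVX8_SCI7, at 297, 321, 237 and 134 CPM, against 107, 79.9, 80.9 and 119 CPM in SCI7 (log2 fold change 1.35, SE 0.36, edgeR adjusted p = 0.0217). Its OVX2_SCI7 libraries had 99.9, 214, 224 and 375 CPM, with replicate 1 in the SCI7 range.

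Gm2606, Gm12033, Gm12070 and Gm12537, each with 1 mismatch to Gapdh, fell. Gm14760, Gm13394 and Gm5559 also have 1 mismatch to Gapdh and were not called in OVX8_SCI7 against SCI7. Gm12537 had 40.5, 18.1, 18.4 and 43.3 counts in OVX8_SCI7, 116, 47.1, 34.7 and 48.1 in OVX2_SCI7, and 415, 206, 236 and 150.2 in SCI7. No library of OVX8_SCI7 or OVX2_SCI7 reached the lowest SCI7 library, which for OVX8_SCI7 was a condition for naming Gm12537. Replicate 1 was the highest of OVX2_SCI7. In OVX8_SCI7 against SCI7 Gm12537 fell by 3.27 on the log2 scale (SE 0.53, edgeR adjusted p = 0.0143), and Gm12070 fell too (edgeR adjusted p = 0.0143), while Gapdh itself did not pass (log2 fold change 0.54, SE 0.19, edgeR adjusted p = 0.0537). Gm12671 and Gm10359, identical to Gapdh and to each other, averaged 2801 and 2748 counts and had equal counts, to within 0.01, in 0 of 12 libraries.

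Of the other 5 pairs of members with the same sequence, 1 pair was equal in every library and the rest in 0 to 10 of 12. Gm8783 and Gm15801, copies of the phosphatase gene Ptp4a1 with the same 522 bases, had equal counts in 12 of 12 libraries. They lie on chromosome 19 within Entpd1 and Aldh18a1, on the strand of those genes. Rpl27-ps3 and Gm11518, copies of Rpl27 with the same 411 bases, were equal in 10 of 12, as were the Timm23 copies Gm10171 and Gm10233. Rpl27-ps3 and Gm11518 parted in replicate 2 of OVX8_SCI7, at 546 and 14.8 counts, and in replicate 3 of SCI7, at 0.01 and 272. The Rpl21 copies Gm10240 and Gm13370 were equal in 2 of 12 libraries and the Gapdh copies Gm2574 and Gm5138 in 0 of 12. Which of such a pair the reads came from is not given by the counts.

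Many gene copies were listed at or near 0 in some libraries and were high in others. Of the 200 members, 60 had under 3 counts in at least 1 library, and 29 of these reached 100 counts or more in another. All 29 were gene copies, 17 of them identical to the parent, and 0 were LINE-1 copies, although 25 LINE-1 copies were among the 106 members that reached 100 counts. Of the 16731 rows with a mean count at least that of the last member, 0.687% were split in this way, 115 rows in all. The number of members under 3 counts was 24, 17, 23 and 20 in OVX8_SCI7, 18, 22, 21 and 23 in OVX2_SCI7, and 13, 14, 16 and 13 in SCI7. Every library from ovariectomised mice thus had more of them than any SCI7 library.

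A member was counted as switched when every library of a group was under 3 counts and every library of the other had 10 or more. Between OVX8_SCI7 and SCI7, 5 members were switched off and 3 on, where 0.0897% of the 16731 rows were switched in either direction, 15 rows in all. Gm10052, the copy of Hnrnpa1 shown above, was the most abundant of them. It had 0, 0, 0 and 0 counts in OVX8_SCI7, 415, 0, 0 and 0 in OVX2_SCI7, and 849, 810.3, 689.6 and 705 in SCI7. Its level in OVX8_SCI7 was at least 301-fold lower than in SCI7, with each library at 0 set to the floor of 3 counts, and it passed the test (edgeR adjusted p = 0.0208). Hnrnpa1 itself had 6641, 7645, 4607 and 5083 counts in OVX8_SCI7, 3734, 4534, 5962 and 5529.5 in OVX2_SCI7, and 5092, 4933, 3732 and 6348 in SCI7. The parent's groups overlapped, and it did not pass (log2 fold change -0.03, SE 0.19, edgeR adjusted p = 0.913).

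The other members switched off were at least 24.9-fold to 36.5-fold lower in OVX8_SCI7 than in SCI7. Mpc1-ps had 0, 0, 0 and 0 counts in OVX8_SCI7, 44.8, 0, 0 and 0 in OVX2_SCI7, and 101, 62.98, 164 and 38.1 in SCI7. Gm10108 had 0 counts in all 8 libraries from ovariectomised mice, and 88.2, 72.8, 85.3 and 19.5 in SCI7. Gm7332 was also at 0 in those 8, and had 152, 64.5, 20.97 and 15.4 counts in SCI7. These 3 differ from their parents at 1 or 2 bases. Gm10095, a copy of BC004004 with 5 mismatches in 483 bases, had 0, 0, 0 and 0 counts in OVX8_SCI7, 81.5, 10.7, 0 and 23.9 in OVX2_SCI7, and 167, 66.1, 20.2 and 64.5 in SCI7. The 4 genes taken as parents were present in every library, and of them Gm10053 fell in OVX8_SCI7 (log2 fold change -0.95, SE 0.25, edgeR adjusted p = 0.0205).

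The 3 members switched on were at 0 in all SCI7 libraries. Gm37421, with an identity of 94.6% to the ubiquitin gene Ubb, had 45.9, 59.8, 106 and 50.1 counts in OVX8_SCI7, 0, 111, 46.6 and 29.6 in OVX2_SCI7, and 0 in every SCI7 library. Its level in OVX8_SCI7 was at least 18.7-fold higher than in SCI7. Ubb had 19719 to 49849 counts in OVX8_SCI7 and 12865 to 16301 in SCI7, and rose (log2 fold change 0.81, SE 0.21, edgeR adjusted p = 0.0193). Gm8783 and its twin Gm15801 each had 36.6, 68.3, 45.7 and 39.5 counts in OVX8_SCI7, 0, 41.01, 18.5 and 17.3 in OVX2_SCI7, and 0 in every SCI7 library, at least 12.9-fold higher in OVX8_SCI7. Ptp4a1 was itself low, at 29.7 to 64.7 counts in OVX8_SCI7 and 51.1 to 74.1 in SCI7, so that its copies held 66.5 ± 4.45% of the family's counts in OVX8_SCI7 and 0% in SCI7. In replicate 1 of OVX2_SCI7 these 3 members were at 0, as in SCI7.

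Between OVX2_SCI7 and SCI7, 4 members were switched off and 0 on, where 0.0299% of the rows were switched. Beside Gm10108 and Gm7332 these were Rps12l1, a copy of Rps12, and Rpl21-ps15, a copy of Rpl21. Rps12l1 had 0, 0, 0 and 0 counts in OVX2_SCI7 and 138, 119.9, 72.5 and 106 in SCI7, at least 37.5-fold lower in OVX2_SCI7, and 0, 50.4, 52.8 and 73.2 in OVX8_SCI7. Rpl21-ps15 had 0 to 0.860 counts in OVX2_SCI7 and 38.2 to 142 in SCI7. Without replicate 1 of OVX2_SCI7, 10 members were switched off and 4 on. Without replicate 4 of SCI7, 7 were off and 6 on between OVX8_SCI7 and SCI7. Both comparisons use the same 4 SCI7 libraries. Between OVX8_SCI7 and OVX2_SCI7, 0 members and 0% of the rows were switched, with 2 members on without replicate 1 of OVX8_SCI7 and 1 off without replicate 3 of OVX2_SCI7.

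**Figure D2:**
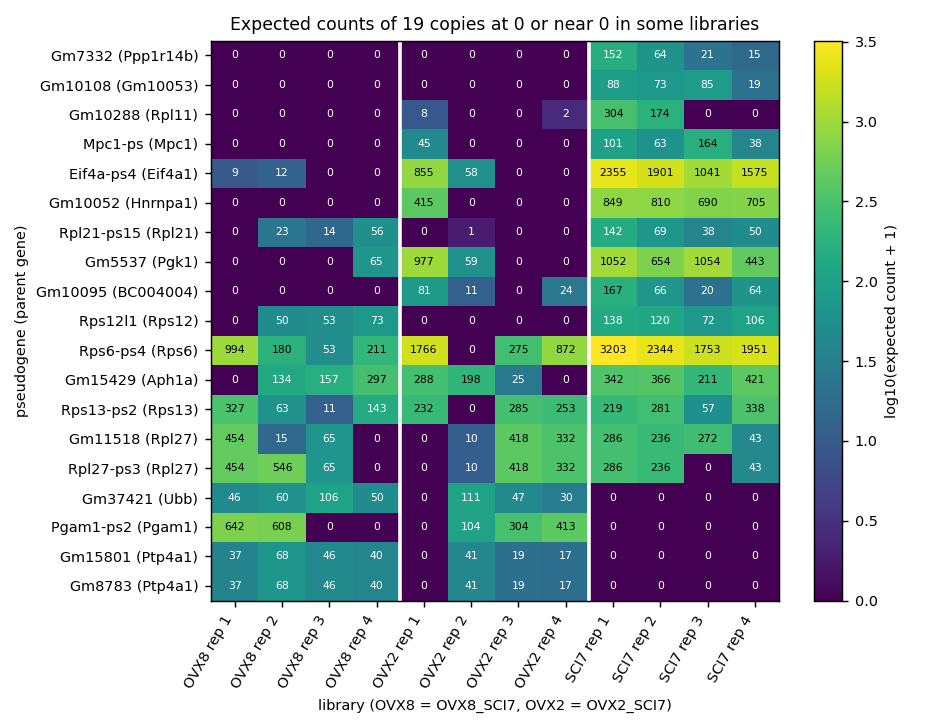
Expected counts (printed in each cell, colour = log10(count + 1)) of the 19 gene copies named for switching between groups or for splitting within a group, with the parent in brackets. Columns are the 12 libraries, OVX8_SCI7 left, OVX2_SCI7 in the middle and SCI7 right. Gm10052 is at 0 in every OVX8_SCI7 library and at 689.6 or more in every SCI7 library, and replicate 1 of OVX2_SCI7 has 415.

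The splits also ran within groups. In OVX8_SCI7 7 members, in OVX2_SCI7 11 and in SCI7 5 had a library under 3 counts and another at 100 or more. The widest was Rps6-ps4, with 994, 179.5, 52.7 and 211 counts in OVX8_SCI7, 1766, 0, 275 and 872 in OVX2_SCI7, and 3203, 2344, 1753 and 1951 in SCI7. The OVX8_SCI7 libraries all lay below the SCI7 libraries, but the difference did not pass (log2 fold change -2.95, SE 1.20, edgeR adjusted p = 0.0826). Its parent Rps6, a protein of the small ribosomal subunit, rose in OVX8_SCI7 (log2 fold change 0.98, SE 0.28, edgeR adjusted p = 0.0258).

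Eif4a-ps4 and Gm5537 had a like arrangement of libraries. Eif4a-ps4 had 8.51, 11.7, 0 and 0 counts in OVX8_SCI7, 855, 57.7, 0 and 0 in OVX2_SCI7, and 2355, 1901, 1041 and 1575 in SCI7. Gm5537, identical to the glycolytic gene Pgk1, had 0, 0, 0 and 65.5 counts in OVX8_SCI7, 977, 59.2, 0 and 0 in OVX2_SCI7, and 1052, 654, 1054 and 443 in SCI7. In both, all SCI7 libraries were high, replicate 1 was by far the highest of OVX2_SCI7, and the OVX8_SCI7 libraries were low. Both fell in OVX8_SCI7 against SCI7 (log2 fold change -8.68, SE 1.87, edgeR adjusted p = 0.0143 for Eif4a-ps4; log2 fold change -5.71, SE 1.93, edgeR adjusted p = 0.0458 for Gm5537). Eif4a1 (log2 fold change 0.64, SE 0.34, edgeR adjusted p = 0.163) and Pgk1 (log2 fold change -0.02, SE 0.16, edgeR adjusted p = 0.924) did not pass.

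Pgam1-ps2, identical to the glycolytic gene Pgam1, ran the other way. It had 642, 608, 0 and 0 counts in OVX8_SCI7, 0, 104, 304 and 413 in OVX2_SCI7, and 0 in every SCI7 library. It was called higher in OVX8_SCI7 against SCI7 (edgeR adjusted p = 0.0478) although 2 of 4 OVX8_SCI7 libraries were at 0. Gm15429, identical to the gamma-secretase subunit gene Aph1a, had 0, 134, 157 and 297 counts in OVX8_SCI7, 288, 198, 24.96 and 0 in OVX2_SCI7, and 342, 366, 211 and 421 in SCI7, and its groups overlapped. Rps13-ps2 had 10.8 to 327 counts in OVX8_SCI7, 0 to 285 in OVX2_SCI7 and 57.1 to 338 in SCI7. Gm10288, a copy of Rpl11, had 304, 174, 0 and 0 counts in SCI7 and did not pass the low-count filter.

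**Figure D3:**
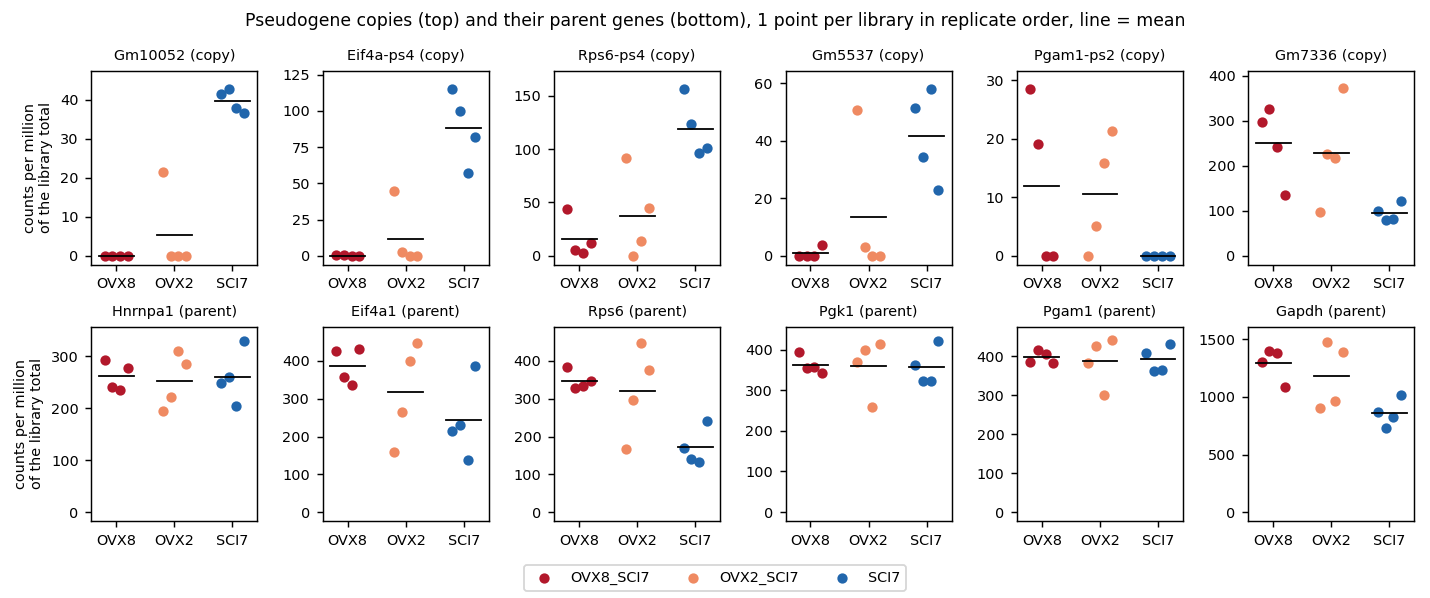
Counts, scaled to a common library total with no TMM factor, of 6 gene copies (top row) and their parents (bottom row), 1 point per library, with OVX8_SCI7 left, OVX2_SCI7 in the middle and SCI7 right, and a line at the mean. The SCI7 libraries are high for the copies Gm10052, Eif4a-ps4, Rps6-ps4 and Gm5537 and at 0 for Pgam1-ps2, and the parents are present in every library.

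Where a copy was listed at 0, the count of its parent was often a whole number. This was read over the 19 gene copies that were the only member copy of their parent and had a library at 0 and another at 100 or more. Of their 88 library values at 0, the parent's count was whole, to within 0.005, in 50. Of their 137 values at 3 counts or more, it was whole in 1. Dividing reads between a copy and its parent tends to leave fractions in both, so this contrast is partly built in. The values repeat the same copies and libraries, and the rate of whole counts over other genes was not taken.

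Each copy was also summed with its parent, which leaves the division of reads between them out of the value. Hnrnpa1 with Gm10052 stood at 259 ± 29.9 CPM in OVX8_SCI7, 259 ± 52.7 in OVX2_SCI7 and 305 ± 47.7 in SCI7, and the sum did not pass (log2 fold change -0.24, SE 0.18, edgeR adjusted p = 0.325). Eif4a1 with Eif4a-ps4 stood at 383 ± 49.1 CPM in OVX8_SCI7 and 337 ± 108 in SCI7 (log2 fold change 0.19, SE 0.29, edgeR adjusted p = 0.640). Pgam1 with Pgam1-ps2 stood at 405 ± 21.5 CPM in OVX8_SCI7 and 399.6 ± 39.00 in SCI7 (log2 fold change 0.02, SE 0.15, edgeR adjusted p = 0.934). These sums moved less between the groups than the copies did. On average the parent held most of each sum, so the sum mainly follows the parent, and this difference was largely fixed in advance. Among the other members switched between OVX8_SCI7 and SCI7, Gm10108 with Gm10053 fell as a sum (log2 fold change -1.06, SE 0.25, edgeR adjusted p = 0.016). Gm37421 with Ubb rose (log2 fold change 0.81, SE 0.21, edgeR adjusted p = 0.0192). The sums of Mpc1, Ppp1r14b, BC004004 and Ptp4a1 with their copies did not pass. Of the 99 summed families, 9 were called higher and 16 lower in OVX8_SCI7 than in SCI7, where 27.5% of all 17699 rows of that fit were called, and 0 were called in the other comparisons.

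In the test of OVX8_SCI7 against SCI7, 198 of the 200 members passed the low-count filter, and 80 of these, 40.4%, were called at an adjusted p under 0.05. Of all 17820 genes tested, 27.5% were called (edgeR quasi-likelihood test, Benjamini-Hochberg adjustment over all genes). Of the members 16 rose and 64 fell, where 11.9% of all genes were called higher and 15.6% lower. The median log2 fold change was -0.80 over the members and 0.01 over all genes. The groups did not overlap for 20 members that were higher and 65 that were lower, where 39.1% of all genes did not overlap. Without replicate 2 of OVX8_SCI7, the most deeply sequenced library, edgeR called 0 members (94 at an unadjusted p under 0.05) and 0 of all genes. The count of members called was 37 without replicate 1 of OVX8_SCI7 (1001 of all genes higher, 1535 lower) and 27 without replicate 3 (440 and 775). It was 34 without replicate 2 of SCI7 (500 and 1142 of all genes) and 46 without replicate 3 (1008 and 1904). When trends on GC content and length were taken out of each library, edgeR called 0 members and 0 of all genes, and the members' median was -0.21. At an unadjusted p under 0.05 there were then 63 of 198 members and 2749 of 17820 genes. Without that correction DESeq2 called 96 members, 19 higher and 77 lower (2936 and 3467 of all genes). With limma-voom, also without it, 81 were called, 14 higher and 67 lower (2140 and 2790 of all genes).

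The 16 members that rose were all gene copies. Gm7887, a copy of Pcnp, a nuclear protein gene, had 44.95, 84.7, 96.2 and 22.01 counts in OVX8_SCI7, 12.2, 37.3, 80.2 and 93.05 in OVX2_SCI7, and 2.51, 0, 2.93 and 5.55 in SCI7. The OVX8_SCI7 and SCI7 libraries did not overlap, a condition for naming it (log2 fold change 4.02, SE 0.80, edgeR adjusted p = 0.0143). Pcnp itself fell by 0.94 on the log2 scale (SE 0.21, edgeR adjusted p = 0.0143). Trmt112-ps2, identical to Trmt112, whose protein activates methyltransferases, had 44.9 to 180.0 counts in OVX8_SCI7 and 1.66 to 28.2 in SCI7 (log2 fold change 3.11, SE 0.63, edgeR adjusted p = 0.0143). Gm10557, with an identity of 96.3% to the cell adhesion gene Cdh11, had 50.5 to 144 counts in OVX8_SCI7 and 8.60 to 22.4 in SCI7 (log2 fold change 1.95, SE 0.32, edgeR adjusted p = 0.0143). Both copies rose while Trmt112 and Cdh11 did not pass. Oaz1-ps, a copy of the antizyme gene Oaz1, which restrains polyamine synthesis, had 1995, 2786, 1551 and 1227 counts in OVX8_SCI7 and 744, 673, 551 and 879 in SCI7 (log2 fold change 1.09, SE 0.23, edgeR adjusted p = 0.0143), and Oaz1 rose too (log2 fold change 0.74, SE 0.23, edgeR adjusted p = 0.0350). Gm5067, with an identity of 94.6% to the ribosome assembly gene Rrs1, had 33.6 to 90 counts in OVX8_SCI7 and 18.7 to 26.1 in SCI7 (log2 fold change 0.93, SE 0.25, edgeR adjusted p = 0.0214).

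Of the 64 members that fell, 27 were gene copies, 32 LINE-1 copies and 5 had no parent found. Gm9762, identical to the ubiquitin-conjugating enzyme gene Ube2d2a, had 31.1, 34.5, 49.8 and 51.4 counts in OVX8_SCI7, 126, 30.6, 45.7 and 41.5 in OVX2_SCI7, and 268, 239, 143 and 179 in SCI7. It fell by 2.53 on the log2 scale (SE 0.48, edgeR adjusted p = 0.0143), and Ube2d2a fell by 0.55 on the log2 scale (SE 0.16, edgeR adjusted p = 0.0286). Ube2n-ps1, identical to another such gene, Ube2n, had 138, 228, 157 and 204 counts in OVX8_SCI7, 376, 169.6, 108 and 111 in OVX2_SCI7, and 632, 436, 425 and 430.3 in SCI7. In both copies replicate 1 was the highest of OVX2_SCI7. Gm14494, a copy of the mitochondrial import receptor gene Tomm20, had 0 to 3.22 counts in OVX8_SCI7 and 13.7 to 70.7 in SCI7. Gm36298, which the deposited description ties to the zinc finger gene Zfp1008, had 21.6 to 31.2 counts in OVX8_SCI7 and 53.4 to 65.3 in SCI7. It fell by 1.40 on the log2 scale (SE 0.26, edgeR adjusted p = 0.0143), and Zfp1008 fell by 1.10 on the log2 scale (SE 0.29, edgeR adjusted p = 0.0202).

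Calls of copies and of parents coincided in few pairs. Of the 16 copies that rose, 2 had a parent that rose, 1 a parent that fell and 13 a parent that was not called. Of the 27 that fell, 7 had a parent that fell, 2 a parent that rose and 18 a parent that was not called. Over the 121 tested pairs, 55 had log2 fold changes of opposite sign. In 67 the copy and the parent differed by more than 1 log2 unit, with the copy below the parent in 48 and above it in 19. Of the copies identical to the parent 33.9% of 56 were called, and of those with differences 36.9% of 65. The parents themselves were called in 29.3% of 99 cases, 14 higher and 15 lower, near the 27.5% called over all genes tested. Their median log2 fold change was 0.31, against -0.36 for the gene copies.

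**Figure D4:**
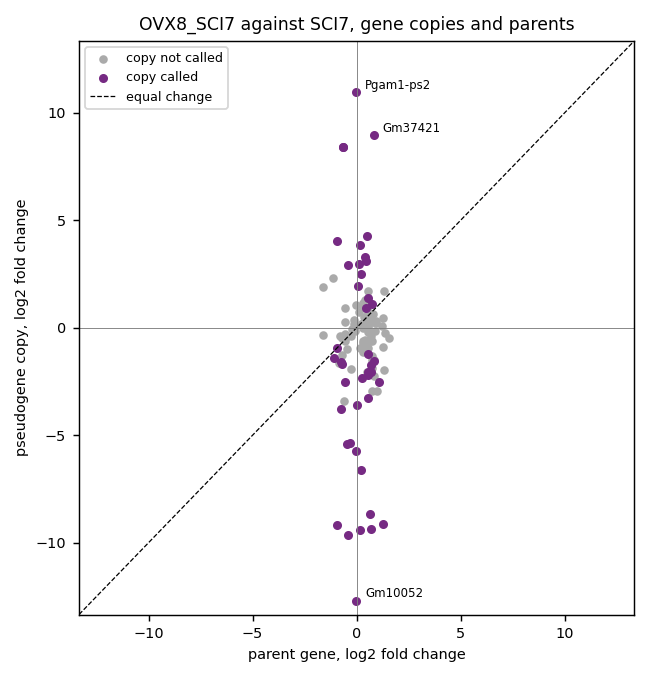
Log2 fold change for OVX8_SCI7 against SCI7 of each of the 121 tested gene copies (vertical axis) against that of its parent (horizontal axis), with copies called at an adjusted p under 0.05 in purple and a dashed line at equal change. The copies spread far above and below the line while the parents stay nearer 0, with 67 copies more than 1 log2 unit from their parent. Fitted values of copies at 0 in a whole group depend on the prior count.

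The counts by role of the parent stand beside 11.9% called higher and 15.6% called lower over all genes tested, and most roles hold few copies. Of the 29 tested copies of cytosolic ribosomal protein genes 2 rose (Rps13-ps1 and Rpl14-ps1) and 1 fell (Rps12-ps3), with a median log2 fold change of -0.24. Of the 15 glycolysis copies 2 rose, Gm7336 and Pgam1-ps2, and 5 fell, the 4 Gapdh copies above and Gm5537. Of the 8 copies whose parent's symbol begins with Ub or Psm, 1 rose (Gm37421) and 4 fell, with a median of -1.04. Gm13835, identical to the proteasome subunit gene Psma3, did not pass, with 262 to 327 counts in OVX8_SCI7 and 207 to 417 in SCI7. Of 4 copies of chromatin genes 1 rose, Gm8203 (of the histone gene H2az1), and the most abundant did not pass. These were Gm15387 (of Hmgb1, a DNA-binding protein), at 474 to 951 counts in OVX8_SCI7 and 164 to 569.9 in SCI7, and Gm4739 (of Hmgb2), at 115 to 220.2 counts in OVX8_SCI7 and 52.1 to 435 in SCI7.

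Of 3 copies placed with the respiratory chain by the symbol of the parent, 1 rose and 1 fell. Gm10221, of the ATP synthase subunit gene Atp5mg, rose (log2 fold change 2.49, SE 0.71, edgeR adjusted p = 0.0269), and Gm12338, of Cox7c, fell. Ndufb4c, identical to the complex I subunit gene Ndufb4, had more counts than its parent, with 596, 581, 327 and 209 beside 356, 377, 170.2 and 144 in OVX8_SCI7 and 361, 254, 353 and 209 beside 115, 107, 98.5 and 120.1 in SCI7. Ndufb4 rose (log2 fold change 0.91, SE 0.28, edgeR adjusted p = 0.0329), and Ndufb4c did not pass. Gm6548, with an identity of 96.7% to the elongation factor gene Eef1a1, had 165, 236, 162 and 146 counts in OVX8_SCI7 and 124, 137, 117 and 143 in SCI7. Scaled to library size the groups overlapped, at 7.27 to 8.09 CPM in OVX8_SCI7 and 6.38 to 7.36 CPM in SCI7, and Gm6548 did not pass. Gm8186 (of the splicing gene Snrpg) and Gm14150 (of the tubulin gene Tuba1b) had under 40 counts in every library and did not pass.

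The LINE-1 copies moved in 1 direction. All 54 were tested, and 32 fell in OVX8_SCI7 against SCI7 while 0 rose, which is 59.3% called. Of all genes tested 27.5% were called, and 15.6% of all genes tested were called lower. The log2 fold change was negative for 53 of 54, with a median of -0.99, and 25 of 54 had no overlap between the groups, where 39.1% of all genes had none. Gm48401 stood at 1.15, 1.12, 0.899 and 0.756 CPM in OVX8_SCI7, 2.81, 1.67, 1.77 and 1.87 in OVX2_SCI7, and 2.22, 2.79, 3.38 and 3.63 in SCI7, and fell (log2 fold change -1.60, SE 0.26, edgeR adjusted p = 0.0143). Gm47056 stood at 0.749 to 1.73 CPM in OVX8_SCI7 and 3.01 to 5.02 in SCI7, and fell (log2 fold change -1.65, SE 0.31, edgeR adjusted p = 0.0143). In both the OVX8_SCI7 libraries lay below all SCI7 libraries, which was a condition for naming them. The most abundant, Gm48493, had 7.67, 6.83, 13.5 and 18.4 CPM in OVX8_SCI7, 20.9, 11.05, 11.4 and 8.92 in OVX2_SCI7, and 10.99, 25.03, 20.9 and 25.6 in SCI7, overlapped between the groups and did not pass (edgeR adjusted p = 0.112). Gm48111 had 8.46 to 14.3 CPM in OVX8_SCI7 and 12.5 to 22.1 in SCI7 and did not pass (edgeR adjusted p = 0.0583).

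No LINE-1 copy was under 3 counts in any library. Protein-coding genes with a GC content in the range of the LINE-1 copies, 37.1 to 45.8%, moved in the same direction, with 1918 of 3955 called lower, 3 called higher and a median log2 fold change of -0.64. The range runs from the lowest to the highest LINE-1 copy, whose median is 38.7%. These genes were not matched to the copies within it, nor in length. The GC correlation and the mitochondrial share given above also differed between the groups, though not always library by library. Replicate 1 of SCI7 had the highest mitochondrial share, 9.35%, and a GC correlation of -0.789, but the lowest LINE-1 share of SCI7. With the offset for GC content and length 0 LINE-1 copies and 0 of all genes were called, so the calls of that fit cannot compare the LINE-1 copies with other genes. The GC correlation was positive in every OVX8_SCI7 library and negative in every SCI7 library, so the offset cannot separate it from the groups. The part of the mitochondrial share was not tested.

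**Figure D5:**
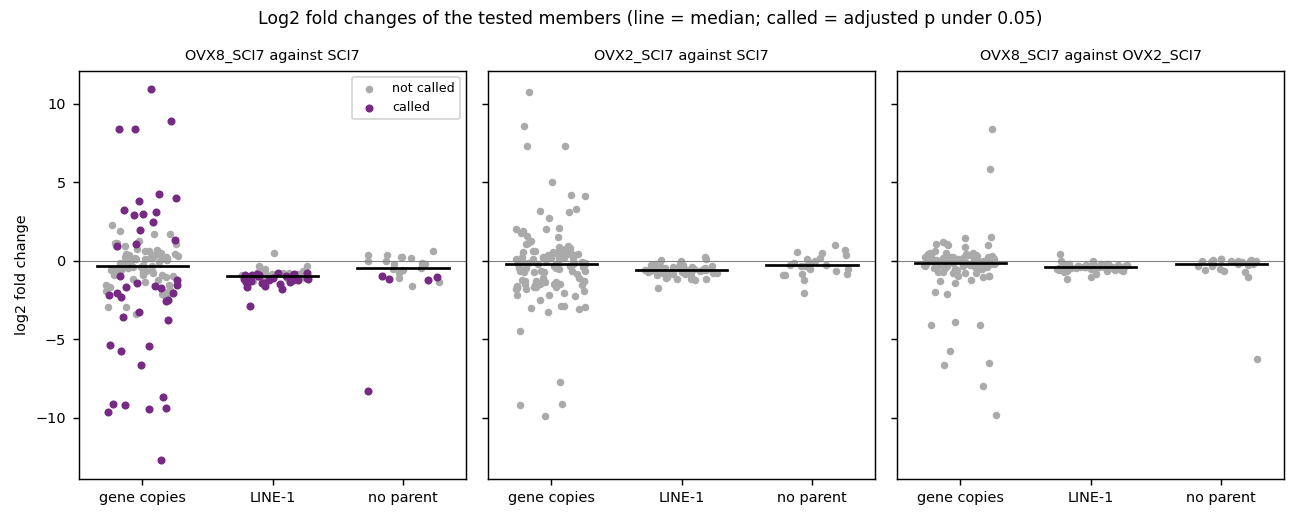
Log2 fold changes (vertical axis) of the tested members by class (gene copies, LINE-1 copies, no parent found) in each of the 3 comparisons, with a line at the median and members called at an adjusted p under 0.05 in purple. In OVX8_SCI7 against SCI7 the LINE-1 copies lie in a narrow band with a median of -0.99 while the gene copies spread on both sides of 0, and 0 members are called in the other comparisons.

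The comparison of OVX2_SCI7 with SCI7 gave 0 calls among the members and 0% over all genes with edgeR. An unadjusted p under 0.05 was found for 74 of 198 members and 5787 of 17820 genes. DESeq2 called 18 members higher and 29 lower, where it called 1979 of all 17820 genes higher and 1722 lower. With limma-voom 7 members were called higher and 20 lower (286 and 607 of all genes). With limma-trend on log2(TPM + 1) 0 were called higher and 5 lower (7 and 9 of all genes). Without replicate 1 of OVX2_SCI7 edgeR called 20 of 198 members higher and 69 lower, and 3081 of 18057 genes higher and 3183 lower. Without replicate 1 of OVX8_SCI7 it called 0 members higher and 2 lower (2 and 2 of all genes). The median log2 fold change was -0.45 over the members and 0.04 over all genes. The groups did not overlap for 9 members that were higher and 25 that were lower, where 12.4% of all genes did not overlap. The 5 members with the smallest p each had an edgeR adjusted p of 0.0520. Gm10557 was higher at 3.01 ± 1.02 CPM in OVX2_SCI7 and 0.869 ± 0.280 CPM in SCI7, and Gm7887 at 2.87 ± 2.01 CPM in OVX2_SCI7 and 0.156 ± 0.124 CPM in SCI7. Rpl21-ps15, Gm10108 and Rps12l1, at or near 0 in OVX2_SCI7, were the others.

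In OVX8_SCI7 against OVX2_SCI7 edgeR called 0 members and 0% of all genes, with 18 of 198 members and 393 of 17820 genes at an unadjusted p under 0.05. DESeq2 called 2 members higher and 1 lower (3 and 3 of all genes), and limma-voom and limma-trend called 0. Without replicate 1 of OVX8_SCI7 edgeR called 1 member higher (1 of all genes). The median log2 fold change was -0.24 over the members and -0.03 over all genes, and 1 member was higher and 3 lower without overlap, where 1.32% of all genes did not overlap. The 5 with the smallest p were Rps12l1, Rpl21-ps15, Gm48401, Gm10095 and Eif4a-ps4, each with an edgeR adjusted p of 0.999. Gm48401 was lower in every OVX8_SCI7 library, at 0.756 to 1.15 CPM, against 1.67 to 2.81 CPM in OVX2_SCI7.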

How the data were processed

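Total RNA of 12 mouse spinal cord samples was sequenced as paired-end reads. Per the submitters' processing notes, the authors used fastp 0.23.4, HISAT2 2.2.1 and RSEM 1.3.3 with the build GRCm39 and list DESeq2 1.42.0, edgeR and limma; the role of each, the library kit and the use of strand are not given in the sources used here. The authors deposited a table of expected counts per gene and library, and TPM values, which are scaled by length and library total, beside them. Reads shared by near-identical copies are divided by such estimates, so a count can move between a copy and its parent.

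Expected counts were rounded to whole numbers, filtered with filterByExpr by group, scaled by TMM and tested with the edgeR 4.0.16 robust quasi-likelihood test (R 4.3.3) over 17820 genes and all 12 libraries in 1 fit, with Benjamini-Hochberg adjustment and a threshold of 0.05. The common biological coefficient of variation was 0.3123. Counts simulated with the gene means and library sizes of the data, over 17626 genes, were tested the same way for OVX8_SCI7 against SCI7. With them 75 of 100 genes changed 2-fold and 99 of 100 changed 4-fold were recovered, with 8 false calls. Their coefficient of variation was lower than that of the data and no other genes changed, so recovery in the data may be lower. DESeq2 1.42.0, limma 3.58.1, other filters and scalings, a replicate block, an offset for GC content and length, sums of copy and parent, and fits without single libraries were alternatives. The offset, the sums and the fit without replicates 1 and 2 of OVX2_SCI7 were chosen after seeing the data.

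Parents came from symbols and descriptions, and otherwise from BLAST+ 2.17.0 matches of at least 90% identity over at least 80% of the member to GENCODE M21 transcripts (GRCm38), an older build than that of the files, also chosen after seeing the data. Coordinates are GRCm38. The members and lists were chosen with earlier results of these data known. Named members were the 10 most abundant, up to 8 per comparison and direction with the smallest p among called members without overlap (5, as values, where fewer than 5 passed), up to 10 switched members, the 10 widest splits within a group, the 2 most abundant per parent family, and those at the edge of the list. Others named beside a count were chosen after their values were seen. Python 3.11.15 with numpy 2.4.6, pandas 2.3.3 and scipy 1.17.1 was used for descriptions.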

Additional observations from a re-analysis of the deposited data

Results flagged for a closer look

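In 168 groups of 4 libraries (56 member measures), 11 held a library whose gap to the nearest other exceeded the 95% limit of Dixon's test. For values not chosen by their spread that limit flags about 1 in 20 groups. Some of these members were named because they switched or split between libraries, so the 11 cannot be set against that rate. A group at 0 in all libraries but 1 is flagged whatever the size of that value. Of the 11, 7 were in replicate 1 of OVX2_SCI7. Its CPM were 6.15 for Gm12537 (1.88 to 2.49 in the other OVX2_SCI7 libraries), 0.318 for Gm14494 (0 to 0.0536), 45.3 for Eif4a-ps4 (0 to 2.69), 22.003 for Gm10052 (0 in the others), 2.39 for Mpc1-ps (0 in the others), 51.8 for Gm5537 (0 to 2.74) and 19.9 for Ube2n-ps1 (5.75 to 7.89). In each of these 7 members the library stood on the side of the SCI7 libraries. Rpl21-ps15 stood at 0.0464 CPM in replicate 2 of OVX2_SCI7, which is under the floor of 3 counts, and at 0 in the others. In OVX8_SCI7, Gm5537 stood at 3.51 CPM in replicate 4 (0 in the others) and Gm11518 at 20.01 CPM in replicate 1 (0 to 3.25 in the others). In SCI7, Ube2n-ps1 stood at 33.4 CPM in replicate 1 and at 21.7 to 23.4 in the others. No explanation was tested.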

How the results depend on the processing

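In OVX8_SCI7 against SCI7, where 80 members were called, 42 were called within the 100 most abundant, 49 with no low-count filter, 49 with a stricter filter and 0 with the GC and length offset. Of all genes, 1532 were called higher and 1725 lower with no filter. With the stricter filter, where 98 members were tested, 1887 were called higher and 2741 lower. Leaving out single libraries gave 0 to 102 calls, with 113 when both replicates 1 and 2 of OVX2_SCI7 were dropped. In OVX2_SCI7 against SCI7, where 0 were called, the count was 1 with no filter, 9 with a stricter filter, 47 with DESeq2, 27 with limma-voom, 5 with limma-trend, 2 in a fit of the 8 libraries alone and 88 without replicates 1 and 2 of OVX2_SCI7, with 0 to 89 over the fits that left libraries out. Of all genes, 498 were called higher and 646 lower with the stricter filter, and 3664 and 3477 without replicates 1 and 2 of OVX2_SCI7. In OVX8_SCI7 against OVX2_SCI7 DESeq2 called 3, and leaving out libraries gave 0 to 1. With the replicate number as a block, 55 members (11 higher, 44 lower), 0 and 0 were called in the 3 comparisons. Of all genes, 1286 were called higher and 2104 lower in OVX8_SCI7 against SCI7, and 0 in the other comparisons. Same-numbered libraries had correlations of -0.69 to 0.57 in their deviations from the group means, so the numbers were not taken to pair them.

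By deposited TPM the members' share was 1.65% in OVX8_SCI7, 1.61% in OVX2_SCI7 and 1.22% in SCI7. Leaving out libraries gave count shares of 0.191 to 0.208%, 0.200 to 0.222% and 0.229 to 0.247% in those groups, in that order. Members under the floor averaged 5.5, 5.75 and 3.75 within the 100 most abundant and 76, 84.8 and 68 within 400, in the same order, and 32.3 in OVX2_SCI7 with a floor of 10. Leaving out libraries gave 20 to 22.3, 20.3 to 22 and 13.3 to 14.3. Of the members switched, 1 in OVX8_SCI7 and 1 in OVX2_SCI7 against SCI7 was within the 100 most abundant, and 2 in OVX2_SCI7 against SCI7 were left with a limit of 20 counts. Leaving out libraries gave 8 to 13 in OVX8_SCI7 against SCI7, 4 to 14 in OVX2_SCI7 against SCI7 and 0 to 2 in OVX8_SCI7 against OVX2_SCI7. For the named members 482 values kept direction and call, 34 passed in addition, 36 no longer passed and 1 turned: Eif4a-ps4 in OVX8_SCI7 against OVX2_SCI7, at 5.22 without replicates 1 and 2 of OVX2_SCI7 and -5.76 with them. The cause was not tested. At a floor of 3 counts, members at 0 may be present below it.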
